A study of Apis mellifera with 8 samples.

Results

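Acetylcholine signalling was followed in the heads of 96 h honey bee larvae through 3 genes, the acetylcholinesterase AChE-2 and the nicotinic acetylcholine receptor subunits nAChRa3 and nAChRa8. The genes were taken by name, and AChE-2 is gene 406104 of the reference annotation. The 3 genes are 3 of the 9161 genes that could be paired with transcripts, and they hold 9 of 28739 transcripts, 1 for AChE-2, 7 for nAChRa3 and 1 for nAChRa8. Heads of larvae reared as queens (96hQ, n = 4) were compared with heads of larvae reared as workers (96hW, n = 4). Both castes are Apis mellifera females, queen larvae having been grafted into queen cups primed with royal jelly and worker larvae left in the comb of their hives. No strain, colony or genotype is given in the labels. Each library was made from a single head, a dissected frontal end that per the study's methods for chromatin holds brain and suboesophageal ganglion together with glands, mouthparts, antennal discs, some fat body and cuticle.

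Acetylcholine is the main fast excitatory transmitter of the insect central nervous system. It opens nicotinic receptors, which are pentameric cation channels built from alpha and beta subunits in varying combination, and acetylcholinesterase ends the signal by hydrolysing the transmitter at the synapse. Nicotinic receptors are the targets of neonicotinoid insecticides and acetylcholinesterase is the target of organophosphates and carbamates. The reference annotation lists Apisalpha3 as an older name of nAChRa8, so that this gene and nAChRa3 are easily confused.

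RNA was selected for poly(A) and sequenced as strand-specific read pairs, and the deposited values are estimated counts and TPM (abundance per transcript length, scaled to a fixed sum) per transcript. Estimated counts summed to 22057972 at the lowest and 23344818 at the highest in queen libraries, and to 19139730 and 21848474 in worker libraries. Log2 normalized counts of genes correlated at 0.952 to 0.981 within castes and at 0.923 to 0.953 between them. The mean fragment length that the deposited effective lengths imply was 170, 187, 176 and 189 bases in queen libraries 1 to 4, against 187, 186, 193 and 190 bases in worker libraries 1 to 4. The shortest fragments were thus in queen libraries 1 and 3. Counts are given below as normalized counts, scaled by the TMM method to the mean library total.

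All 3 genes were lower in every queen head than in every worker head. The threshold was an adjusted p of 0.01, taken from the study, which applied it to transcripts with another tool, sleuth. By edgeR's quasi-likelihood test on gene sums, nAChRa3 and nAChRa8 passed it and AChE-2 did not. The fold changes were -0.92 ± 0.22 for AChE-2, -0.52 ± 0.09 for nAChRa3 and -0.93 ± 0.15 for nAChRa8 (log2 of 96hQ over 96hW ± SE). Among all 8151 genes tested, 277 (3.4%) passed as higher in 96hW, and 1196 (14.7%) had every worker head above every queen head. In a bulk head, fewer neurons and less of an RNA per neuron cannot be told apart.

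AChE-2, an enzyme that breaks down acetylcholine, had 2765, 4577, 6091 and 4586 normalized counts in the queen heads, against 9019, 8253, 9462 and 7305 in the worker heads. Queen head 1 was the lowest and queen head 3 the highest of its caste, and the highest queen head stayed below the lowest worker head. Queen heads averaged 4505 ± 1361 and worker heads 8509.6 ± 946 (SD, n = 4 each), so that queen heads held 0.529 times the worker level. The spread was wider in queens, where the coefficient of variation was 30.2% in 96hQ and 11.1% in 96hW. The adjusted p was 0.0183 by edgeR's quasi-likelihood test. It was 0.0081 without 96hQ replicate 3, the only single omission that brought it under the threshold, and 0.000354 with DESeq2.

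nAChRa3, an alpha subunit, was the most even of the 3 genes between heads of a caste. It had 2224, 1814, 2186 and 2219 normalized counts in the queen heads, against 2679, 3305, 2954 and 3138 in the worker heads. Queen heads 1, 3 and 4 were nearly level and queen head 2 lay below them, and again no queen head reached a worker head. Queen heads averaged 2111 ± 198 and worker heads 3019 ± 269 (SD, n = 4 each), a ratio of 0.699. The difference passed the threshold (adjusted p = 0.0073, edgeR).

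nAChRa8, another alpha subunit, was read at a far lower depth. It had 129, 204, 174 and 178 normalized counts in the queen heads, against 281, 340, 334 and 349 in the worker heads, from between 137 and 335 estimated counts per library. Queen head 1 was the lowest of its caste, as in AChE-2, and no queen head reached a worker head. Queen heads averaged 171 ± 31.1 and worker heads 326 ± 30.6 (SD, n = 4 each), a ratio of 0.526. The difference passed the threshold (adjusted p = 0.0052, edgeR).

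**Figure D1:**
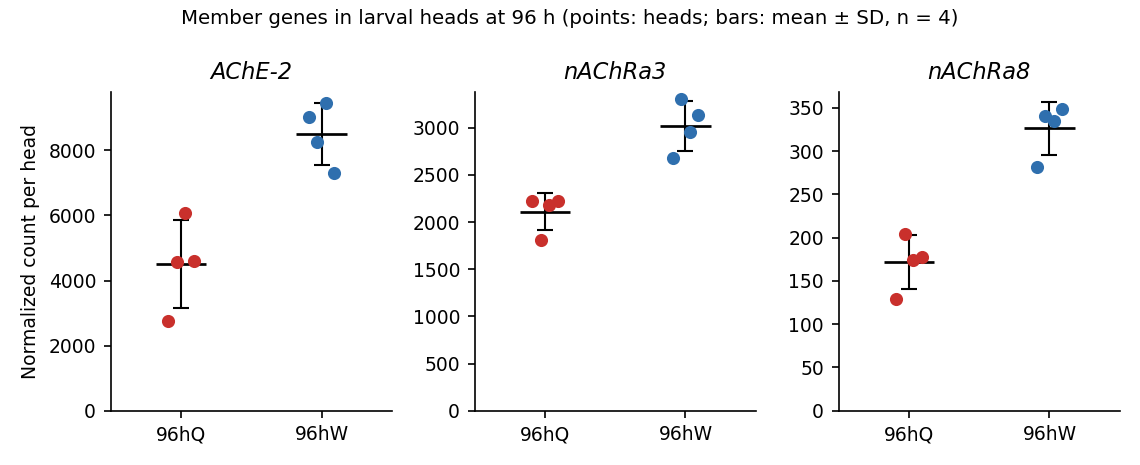
Normalized counts (vertical axes, from 0) of AChE-2, nAChRa3 and nAChRa8 in each larval head, 96hQ in red and 96hW in blue, with the mean and SD of 4 heads in black. In each panel the 4 queen heads sit below the 4 worker heads, and for AChE-2 the queen heads spread from 2765 to 6091.

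Both calls were close to the threshold. Without 1 library in turn, nAChRa3 passed only without 96hW replicate 1 (adjusted p from 0.0081 to 0.0244 over the 8 omissions) and nAChRa8 passed in 4 of 8, being lost without 96hQ replicate 4 or 96hW replicate 2, 3 or 4 (0.0063 to 0.0199). With the mean fragment length of each library as a further term of the edgeR model, none of the 3 genes passed, with fold changes of -0.76 for AChE-2, -0.57 for nAChRa3 and -0.74 for nAChRa8, and 38 genes passed in all.

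Levels can be compared between genes on the TPM scale, which divides by transcript length. nAChRa3 was at 34.4, 33.0, 31.5 and 36.2 TPM in the queen heads, against 52.8, 56.6, 49.5 and 49.8 TPM in the worker heads. AChE-2 was at 14.0, 25.7, 26.6 and 24.1 TPM in the queen heads, against 54.9, 46.4, 53.0 and 37.9 TPM in the worker heads. The enzyme was thus below nAChRa3 in every queen head, while in worker heads the ranges of these 2 genes overlapped. nAChRa8 was at 4.26, 7.50, 4.95 and 6.13 TPM in the queen heads, against 11.2, 12.5, 12.3 and 11.9 TPM in the worker heads. Mean levels of AChE-2 stood at the 46.7th percentile of the tested genes in 96hQ and at the 68.1st in 96hW, those of nAChRa3 at the 59.9th in 96hQ and the 70.5th in 96hW, and those of nAChRa8 at the 21.1st in 96hQ and the 28.2nd in 96hW.

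The files hold 8 other nicotinic subunits that could be paired by symbol, namely nAChRa1, nAChRa2, nAChRa4, nAChRa6, nAChRa7, nAChRa9, nAChRb1 and nAChRb2. The subunit nAChRa5 had no symbol in the reference annotation and was not analysed. Of these 8, none passed the threshold in either direction, 4 had an unadjusted p under 0.05 by edgeR, against 41.0% of all genes, and the median log2 fold change was -0.53, beside 0.0046 over all 8151 genes. DESeq2 passed 1 of the 8, nAChRa7, as higher in 96hW, as it did 10.6% of all genes, and limma-voom none, against 8.48% of all genes in either direction. In normalized counts nAChRa7 was the only one of the 8 in which no queen head reached a worker head, a pattern that 14.7% of all genes had. In TPM nAChRa1 and nAChRb1 joined nAChRa7, and the share of all genes was not computed on that scale. The estimate for nAChRa7 was -0.68 ± 0.20 (adjusted p = 0.0401, edgeR). It was -0.80 ± 0.27 for nAChRa1, -1.29 ± 0.53 for nAChRa2 and -0.67 ± 0.27 for nAChRb1, with adjusted p of 0.0568, 0.104 and 0.0991 in that order. For nAChRa4 it was -0.39 ± 0.45 and for nAChRa9 0.61 ± 0.50, with adjusted p of 0.547 and 0.388. Those of nAChRa6 (0.07 ± 0.49) and nAChRb2 (0.11 ± 0.32) were near 0 and turned negative on the TPM scale, where the median of all genes was itself shifted by -0.14.

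Among the 10 subunits paired by symbol, nAChRa3 was the most abundant in either caste and stood apart from the rest. Its lowest head, at 31.5 TPM in queens and 49.5 TPM in workers, lay above the highest head of the next subunit, nAChRa2, at 12.0 TPM in queens and 24.4 TPM in workers. nAChRa8 was the fourth subunit by mean level in both castes, at 5.71 ± 1.42 TPM in 96hQ and 11.95 ± 0.57 TPM in 96hW. Its range overlapped those of its neighbours in that order, nAChRa1 above and nAChRb1 below, in queen heads. In worker heads it overlapped that of nAChRa1 but lay above that of nAChRb1. nAChRa4, nAChRa6 and nAChRb2 stayed under 4 TPM in every head of either caste.

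**Figure D2:**
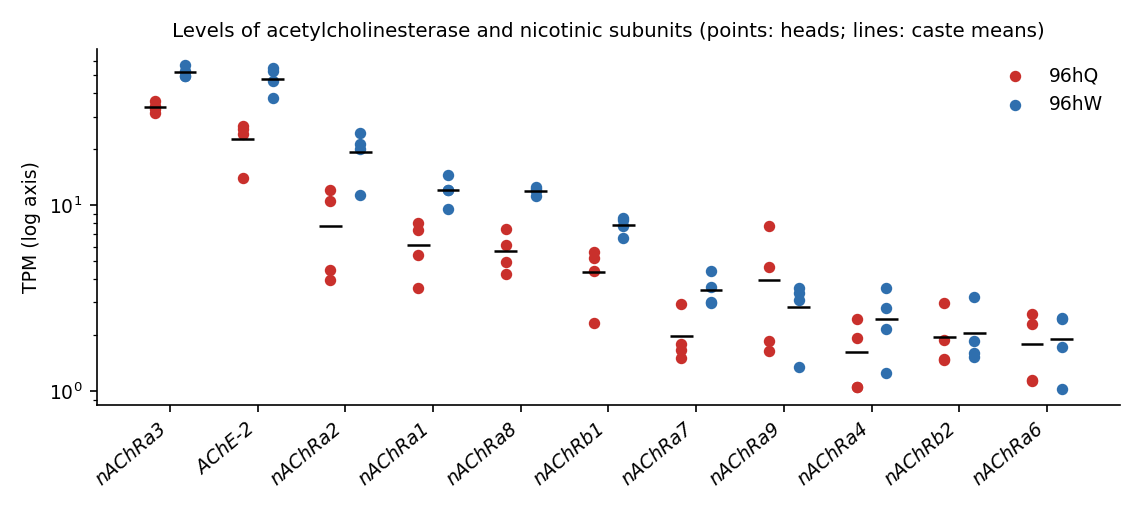
TPM on a log axis for AChE-2 and the 10 nicotinic subunits, ordered by their mean in worker heads, with 96hQ (red) left of 96hW (blue). Points are heads and black lines are caste means. nAChRa3 lies above the other subunits shown in both castes, and nAChRa8 lies at 4.26 to 7.50 TPM in queen heads and 11.2 to 12.5 TPM in worker heads.

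Summed over the 10 paired subunits, TPM came to 57.8, 69.8, 70.3 and 78.3 in the queen heads, against 115, 122, 120 and 107 in the worker heads. The castes did not overlap (exact two-sided permutation test, p = 0.0286, the smallest that 4 against 4 heads allow). On the log2(TPM + 1) scale the median of all genes was itself shifted by -0.14. The sum includes nAChRa3 and nAChRa8, in which the castes did not overlap either, so it is no separate evidence about the other subunits. Within that sum, nAChRa3 made up 49.5% ± 6.8 in 96hQ and 45.0% ± 2.5 in 96hW (SD, n = 4 each), with an exact p of 0.343. nAChRa8 made up 8.24% ± 1.70 in 96hQ and 10.3% ± 0.56 in 96hW, with an exact p of 0.114. No difference in the share of either subunit was detected with 4 heads per caste. The highest share of nAChRa3, 59.5%, was that of queen head 1.

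Of the 7 transcripts of nAChRa3 in the files, 6 passed the filter on low counts. XM_016912061.1 received less than 1 count in every library and was not tested. XM_016912067.1 carried the most counts, followed by XM_016912064.1 and XM_016912066.1, and the remaining transcripts, with the curated NM_001079561.1 among them, carried few. NM_001079561.1 is 1701 bases long, against 4265 to 4807 for the others, so its share was larger in TPM. It held 3.1% of the counts of the gene in 96hQ and 1.4% in 96hW. In TPM it held 8.2% ± 5.6 in 96hQ and 3.9% ± 4.6 in 96hW (SD, n = 4 each). XM_016912067.1 had 1079.6, 798, 1016 and 1087 normalized counts in the queen heads, against 1358, 1449.7, 1277 and 1500.1 in the worker heads. XM_016912064.1 had 598, 572, 605 and 493 normalized counts in the queen heads, against 723, 963, 1027 and 847 in the worker heads. No queen head reached a worker head in these transcripts or in the weakly covered XM_016912062.1. XM_016912066.1 behaved otherwise, with 463, 333, 396 and 591 in the queen heads, against 300.1, 689, 385 and 639 in the worker heads, so that the castes overlapped. NM_001079561.1 reached at most 121 in queen heads and 104 in worker heads, and had 0 in worker head 3.

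No transcript of the 3 genes passed the threshold when transcripts were tested on their own. In simulated counts this test recovered 4.17% of transcripts changed 2-fold, so a transcript that did not pass may still have differed. Of the 20768 transcripts tested, 69 (0.332%) passed as higher in 96hW, and 1824 (8.78%) had every worker head above every queen head. The adjusted p by edgeR was 0.0238 for NM_001011575.1 of nAChRa8 (-0.89 ± 0.17) and 0.0504 for NM_001040230.1 of AChE-2 (-0.88 ± 0.22), the single transcripts of these genes in the files. It was 0.0239 for XM_016912064.1 (-0.65 ± 0.13) and 0.0392 for XM_016912067.1 (-0.49 ± 0.11), and between 0.268 and 0.796 for the other 4 transcripts of nAChRa3. Of the 8 member transcripts tested, 4 had an unadjusted p under 0.05 by edgeR, against 23.5% of all transcripts. DESeq2 passed 4 of them at an adjusted p of 0.01 as higher in 96hW, against 4.55% of all transcripts, namely NM_001011575.1, NM_001040230.1, XM_016912064.1 and XM_016912067.1. limma-voom passed none, against 0.953% of all transcripts in either direction.

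The make-up of nAChRa3 by isoform was compared as the share of its counts. XM_016912067.1 held 46.4% ± 2.4 in 96hQ and 47.1% ± 3.8 in 96hW (SD, n = 4 each, exact p = 0.714). XM_016912064.1 held 26.7% ± 3.7 in 96hQ and 29.9% ± 3.6 in 96hW (exact p = 0.371), and XM_016912066.1 held 20.7% ± 3.8 in 96hQ and 16.6% ± 5.0 in 96hW (exact p = 0.286). The share of every transcript overlapped between castes. In a test of isoform use across all genes with more than 1 transcript (edgeR), 8 of 3153 genes (0.254%) passed and nAChRa3 did not (adjusted p = 1.0). Reads that fit several of these transcripts were divided by the authors' tool, and the error of that division was not measured here.

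**Figure D3:**
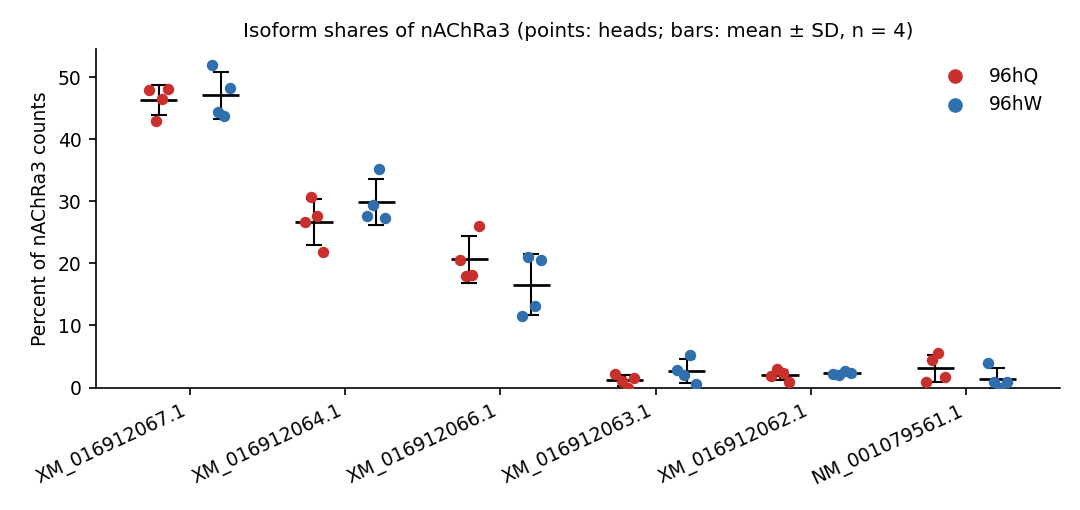
Percent of the estimated counts of nAChRa3 assigned to each of 6 transcripts in every head, 96hQ (red) left of 96hW (blue), with the mean and SD of 4 heads in black. The castes overlap for each transcript, and XM_016912067.1 holds 43.0% to 48.1% in queen heads and 43.8% to 51.9% in worker heads.

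Whether the members changed by unequal amounts was asked with the log2 ratio of 2 members within the same head, for the 3 pairs they form. The ratio of AChE-2 to nAChRa3 was 1.04 ± 0.52 in 96hQ and 1.49 ± 0.26 in 96hW (SD, n = 4 each), a difference of -0.45 (exact permutation test, p = 0.171). The ratio of nAChRa3 to nAChRa8 was 3.64 ± 0.39 in 96hQ and 3.21 ± 0.07 in 96hW, a difference of 0.43 (exact p = 0.114). The ratio of AChE-2 to nAChRa8 was 4.68 ± 0.32 in 96hQ and 4.70 ± 0.27 in 96hW, a difference of -0.02 (exact p = 0.943). No pair passed 0.05 before adjustment for the 3 pairs. Without 96hQ replicate 1 the first difference was -0.21 and the second 0.27. A difference in fold change between members was therefore not detectable with these heads, which does not show that the members moved alike. Queen head 1 had the lowest ratio of AChE-2 to nAChRa3, 0.31, against 1.05 to 1.48 in the other queen heads and 1.22 to 1.75 in the worker heads.

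The members were then set against genes of neurons at large. Of the 10 neuron markers in the files, log2 fold changes were -0.54 for Syt1, -0.37 for Syx1A and -0.64 for brp, all synaptic proteins. They were -0.41 and -0.67 for the channels Para and Cac. Those of Abscam, NLG-3, NLG-4, NLG-5 and Nrx-1 were larger in size, at -0.79, -0.84, -0.75, -0.97 and -0.85. The median of the 10 was -0.71, with 10 of 10 negative. Abscam and NLG-3 passed as higher in 96hW, 2 of 10, and none passed as higher in 96hQ. Of all genes tested, 3.4% passed as higher in 96hW and 5.21% as higher in 96hQ, and the median was 0.0046. The summed level of the 10 markers was 121 to 152 TPM in queen heads and 176 to 241 TPM in worker heads. Over their geometric mean, AChE-2 was 3.41 ± 0.23 in 96hQ and 3.67 ± 0.14 in 96hW on the log2 scale (SD, n = 4 each), a difference of -0.26 (exact permutation test, p = 0.0857). The same ratio for nAChRa3 was 2.37 ± 0.38 in 96hQ and 2.18 ± 0.18 in 96hW, a difference of 0.19 (exact p = 0.4). That for nAChRa8 was -1.27 ± 0.22 in 96hQ and -1.03 ± 0.17 in 96hW, a difference of -0.24 (exact p = 0.143). For each member the castes overlapped on this scale, where they had not overlapped in normalized counts. The differences moved when single heads were left out, to -0.16 for AChE-2 without 96hQ replicate 1, 0.05, 0.31 and 0.12 for nAChRa3 without 96hQ replicates 1, 2 and 4 in turn, and -0.14 for nAChRa8 without 96hQ replicate 3. The 4 markers with transcripts under 5000 bases were Syt1, NLG-4, NLG-5 and Nrx-1. Over these 4 the differences were -0.14, 0.30 and -0.12 for AChE-2, nAChRa3 and nAChRa8 (exact p = 0.2, 0.343 and 0.457). The part of overall neural RNA in the fold changes was not tested beyond these ratios.

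**Figure D4:**
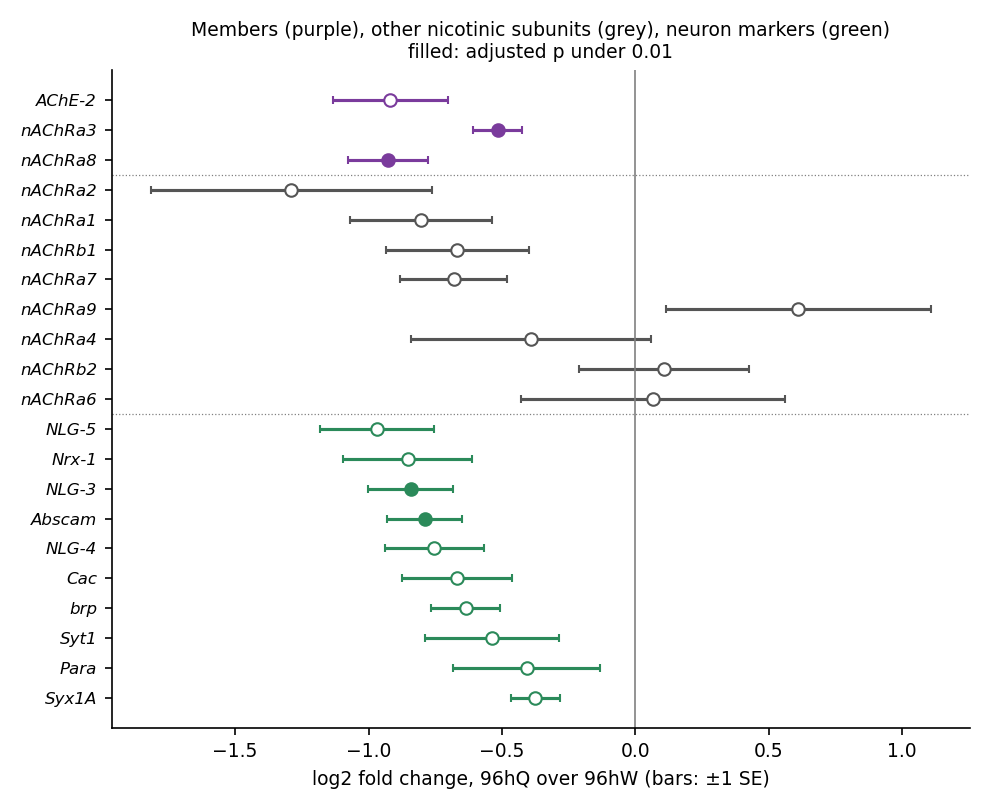
Log2 fold change of 96hQ over 96hW (horizontal axis, bars of 1 SE) for the 3 members in purple, the 8 other nicotinic subunits in grey and the 10 neuron markers in green, filled where the adjusted p from edgeR was under 0.01. The members lie at -0.92, -0.52 and -0.93, within the range spanned by the other subunits, and the neuron markers all lie below 0.

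**Figure D5:**
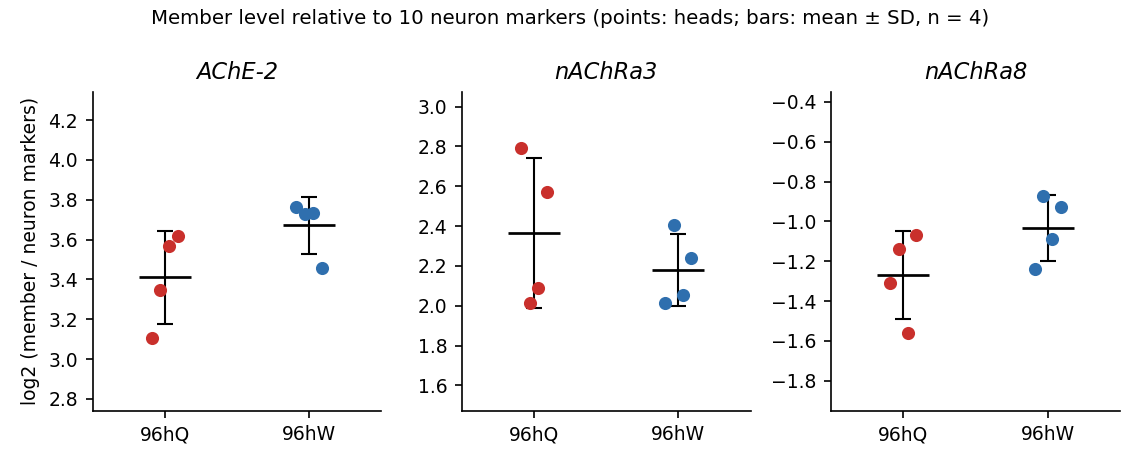
Log2 ratio of each member to the geometric mean of 10 neuron markers in the same head (vertical axes of equal span, not starting at 0), 96hQ in red and 96hW in blue, with the mean and SD of 4 heads in black. The castes overlap in every panel, with means of 3.41 in 96hQ and 3.67 in 96hW for AChE-2, 2.37 in 96hQ and 2.18 in 96hW for nAChRa3, and -1.27 in 96hQ and -1.03 in 96hW for nAChRa8.

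Markers of other tissues in the dissected head were read beside these values. The 6 muscle troponins had a median log2 fold change of -0.13 and none passed, their summed level being 2599 to 5808 TPM in queen heads and 3397 to 6206 TPM in worker heads. The defining muscle genes TpnI and TpnT were well covered, while TpnCIIIa and TpnCIIIb had at most 15.0 normalized counts in any head. Queen head 1, lowest of its caste in AChE-2 and nAChRa8 and narrowly highest in nAChRa3, had the most TpnT of the queen heads. It held 46624 normalized counts of TpnT, against 18171 to 31626 in the other queen heads. Worker head 1 likewise had the most TpnT of the worker heads, with 41879 against 28159 to 29984 in the others, and its member levels are given below. The largest shift was in the 6 fat body genes, storage and transport proteins of the hemolymph, with a median of -2.45 and 6 of 6 negative. Of these, 2 passed as higher in 96hW, Hex70a (-3.51) and Vg (-3.99), where 3.4% of all genes did so. Vg was near the floor, with 4.7 to 6.9 normalized counts in queen heads, against 11.8, 78.9, 95.8 and 198.6 in the worker heads. The summed level of the 6 fat body genes was 7778 to 19027 TPM in queen heads and 7623 to 62769 TPM in worker heads. The storage protein Hex70a had 4703, 9158, 7317 and 6727 normalized counts in the queen heads, against 10582, 87511, 103965 and 116373 in the worker heads, so that worker head 1 lay near the queens. In worker head 1 the members were above every queen head, AChE-2 with the second highest count of its caste and nAChRa3 and nAChRa8 with the lowest. The 1 glial marker, the glutamate transporter Eaat-2, was at -0.43 ± 0.26 (adjusted p = 0.253, edgeR). Of 24 cuticle genes, 22 were tested and 5 passed as higher in 96hQ, where 425 of all 8151 genes (5.21%) did so, and their summed level was 73886 to 140333 TPM in queen heads and 22117 to 39798 TPM in worker heads. The 1 hemocyte gene, the prophenoloxidase PPO, was at 0.34 ± 0.68 (adjusted p = 0.738, edgeR). The 4 silk gland genes together reached at most 8.69 TPM in queen heads and 9.97 TPM in worker heads. The part of these tissues in the fold changes of the members was not tested.

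Fold changes also moved with transcript length. Among genes with transcripts of 10000 to 16000 bases the median log2 fold change was -0.30 over 65 genes, and it was 0.17 over 1393 genes under 1000 bases. The transcript of AChE-2 is 13107 bases long, that of nAChRa8 is 2163 bases, and those of nAChRa3 averaged 4443 bases weighted by counts. With the trend on length subtracted, the fold changes were -0.63 for AChE-2, -0.38 for nAChRa3 and -0.92 for nAChRa8. The fitted trend at the length of nAChRa8 was -0.011, so its subtraction could hardly change the value of that gene.

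The genes whose pattern over the 8 heads was most like that of each member carry only locus names in the reference annotation. For AChE-2 they were LOC551737, LOC551280, LOC725033, LOC726991 and LOC100576671, with Pearson's r of log2 normalized counts between 0.983 and 0.988. For nAChRa3 they were LOC409107, LOC412245, LOC552172, LOC725106 and LOC409856, with r between 0.98 and 0.989, and for nAChRa8 they were LOC552576, LOC409847, LOC412616, LOC410019 and LOC726014, with r between 0.987 and 0.995. After the caste means were subtracted, r stayed between 0.947 and 0.966 for the genes of AChE-2, 0.888 and 0.937 for those of nAChRa3, and 0.904 and 0.968 for those of nAChRa8. Each list holds the top 5 of all tested genes over 8 heads that share their libraries, so high values are a property of the choice. Spearman's rho was between 0.905 and 1 for all 15 genes.

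No member was in the list of another, so by the way the lists were made the members had lower r with each other. AChE-2 and nAChRa8 had r = 0.895 over the 8 heads (rho = 0.69) and 0.56 after the caste means were subtracted. nAChRa3 had r = 0.711 with AChE-2 (rho = 0.643) and 0.816 with nAChRa8 (rho = 0.762), and -0.25 and -0.17 within castes. Against the mean of the 10 neuron markers, r was 0.967 for AChE-2, 0.925 for nAChRa8 and 0.731 for nAChRa3, and within castes 0.879, 0.609 and -0.36. These values describe heads of 2 castes and carry no test.

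In the later reference assembly, used here for names and order only, nAChRa8 overlaps the protein-coding gene LOC551174, while no protein-coding gene overlaps AChE-2 or nAChRa3. LOC551174 had 676, 933, 857 and 776 normalized counts in the queen heads, against 754, 803, 922 and 887 in the worker heads. The castes overlapped (-0.05 ± 0.11, adjusted p = 0.743, edgeR). The protein-coding gene on the other side of nAChRa8, LOC408824, had 0 counts in every queen head, against 147, 192, 34.9 and 0 normalized counts in the worker heads, and was not tested because too few libraries held it. The protein-coding gene that follows AChE-2, LOC107964911, was at 0.03 ± 0.36 (adjusted p = 0.955). Those flanking nAChRa3 were at -1.50 ± 0.49 for LOC725963 (adjusted p = 0.0539) and -0.16 ± 0.17 for LOC726025 (adjusted p = 0.51), and none of the 4 neighbours tested passed.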

How the data were processed

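Individual larval heads (4 of 96hQ, 4 of 96hW) were sequenced as strand-specific, poly(A)-selected read pairs. The authors quantified reads with kallisto, whose version is not given in the sources used here, and deposited estimated counts per transcript, not normalized between libraries, and TPM. RefSeq accessions name the transcripts in the deposited files, although an Ensembl Metazoa set is given in the study's methods. Transcripts were paired with genes by accession root through a RefSeq table of a later assembly (Amel_HAv3.1), which matched 17723 of 28739 transcripts (61.7%) with 9161 genes. Other cholinergic genes were not analysed here where this table gave no symbol. These were AChE-1, nAChRa5, ChAT, VAChT and muscarinic receptors.

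Estimated counts were summed per gene and rounded, and features with 5 or more counts in 4 or more libraries were kept. Castes were compared by the quasi-likelihood F test of edgeR 4.0.16 (R 4.3.3) after TMM scaling, with no other term in the model, and p-values were adjusted by Benjamini and Hochberg with the threshold of the study, 0.01. The study used sleuth, which was not used here. Standard errors are the fold change over the root of F. Isoform use was tested with edgeR's diffSpliceDGE, and single ratios and shares with exact two-sided permutation tests. The fold changes and counts of calls were recomputed with DESeq2 1.42.0, with limma 3.58.1 on voom values and on log2(TPM + 1) and log2(TPM + 0.1), with size factors of other kinds, other filters, unrounded counts, a replicate block, a threshold of 0.05 and each library left out. Ratios and shares were recomputed from TPM, isoform use and ratios with each library left out, and ratios with genes of other transmitters added to the neuron markers. The fragment length term, the trend on length (lowess, fraction 0.4) and the markers under 5000 bases were added after seeing the data. On simulated counts for 8094 genes, 16.3% of genes changed 1.5-fold were recovered, and 72%, 67.3% and 89.6% of those changed 2, 3 and 4 times. On simulated counts for 19935 transcripts, 0% of those changed 1.5-fold were recovered, and 4.17%, 34% and 32.7% of those changed 2, 3 and 4 times.

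The members and lists were chosen with earlier results of these data known. By rule the text names the 3 members and their transcripts, the other subunits, and the 5 genes most like each member. Neighbouring genes and single marker genes were named after their values were seen. Each library is 1 animal, so the spread includes that between animals, dissection and library preparation. Counting error was not separated from the spread between heads.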

Additional observations from a re-analysis of the deposited data

Results flagged for a closer look

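Queen head 2 stood apart in nAChRa3. It had 1814 normalized counts, against 2186 to 2224 in the other queen heads, and its gap to the nearest of them was 0.907 of the range of its caste, above Dixon's critical value of 0.829 for 4 samples. This was the only such head among 18 groups of 4 heads examined (the 3 genes and the 6 tested transcripts of nAChRa3 in both castes), and chance alone would mark about 1 in 20. Without that head nAChRa3 was at -0.45 on the log2 scale with an adjusted p of 0.0124 by edgeR.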

How the results depend on the processing

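The log2 fold changes of the 3 genes were negative under every alternative run. AChE-2, which missed 0.01, passed with DESeq2 (-0.92) and at a threshold of 0.05 (-0.92). nAChRa3 no longer passed with a fragment length term (-0.57) and was at -0.38 with the length trend subtracted. nAChRa8 no longer passed with library totals as the only scaling (-0.94) or with the fragment length term (-0.74). Leaving out 1 library gave -1.09 to -0.74 for AChE-2, -0.57 to -0.45 for nAChRa3 and -1.02 to -0.81 for nAChRa8. The causes of these losses were not tested.

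Replicate numbers are shared between castes, and the labels do not say whether heads of the same number share a source. The deviations of same-numbered heads correlated at -0.06 to 0.09, which cannot exclude a shared source. The numbers were not read as pairing. With a replicate block the values were -0.52 for nAChRa3 and -0.94 for nAChRa8, neither passing (adjusted p = 0.0381 and 0.0168), -0.96 for AChE-2 (0.0373), and 10 genes and 1 transcript passed.

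The number of genes that passed, 702, was 269 with library totals, 1900 with DESeq2, 234 and 227 on log2(TPM + 1) and log2(TPM + 0.1), 38 with the fragment length term, 2189 at 0.05, and 142 to 774 without 1 library. On the TPM scales 38.0% and 41.0% of these lay toward 96hQ, against 60.5% in the counts. The number of transcripts, 254, was 68, 2286, 85, 91 and 4 under the same settings, 159 without a filter, 1553 at 0.05, and 2 to 147 without 1 library. Isoform use was called for 1 to 8 genes without 1 library. The fold change of XM_016912066.1 lay between -0.365 and 0.014 over the omissions, positive only without 96hW replicate 2, and the isoform use of XM_016912067.1 between -0.0298 and 0.0221. Ratios between members and to neuron markers kept their side of 0.05 under each alternative with a test, and without 1 library they spanned -0.59 to -0.21, -0.17 to 0.08 and 0.27 to 0.59 between members, and -0.33 to -0.16, 0.05 to 0.31 and -0.31 to -0.14 to neuron markers.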
